A study of Mus musculus with 8 samples.

Results

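The genes described here are 9 surface, adhesion and secreted genes that are typical of mature mouse neutrophils: Csf3r, Cxcr2, Fpr1, Fpr2, Trem1, Trem3, Retnlg, Ly6g and Selplg. They were chosen by name, and all 9 were found among the 18901 genes of the deposited table. Levels were measured by RNA-seq of cheek skin that had been injected intradermally with B-type natriuretic peptide (BNP), a peptide that causes scratching in mice. The knockout group was 4 TBX20fl/fl;K14-Cre mice, in which Cre recombinase under the K14 promoter deletes exons 2 and 3 of Tbx20, the gene of a T-box transcription factor, in keratinocytes. The control group was 4 TBX20fl/fl littermates without the Cre transgene, so both groups carried the floxed alleles and both had received BNP, and no uninjected or vehicle-injected skin was part of the comparison. All mice were female and 7 weeks old. Each had 10 µg of BNP in 10 µL injected into the left cheek and vehicle into the right cheek, was recorded for 30 min, and was euthanised 5 h later. Each mouse gave 1 library, and a mouse is called by its group and the number in its label. The comparison asks how loss of TBX20 from keratinocytes bears on these genes in BNP-injected skin.

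Neutrophils mature in the bone marrow under granulocyte colony-stimulating factor (G-CSF), whose receptor is encoded by Csf3r. They leave the blood at sites of injury by rolling on endothelial selectins, which bind the glycoprotein PSGL-1 (Selplg), and then follow chemokines that bind CXCR2 and formylated peptides that bind the receptors FPR1 and FPR2. TREM1 and TREM3 are surface receptors that pair with the adaptor DAP12 (Tyrobp) and amplify inflammatory signalling. LY6G is the surface antigen by which mouse neutrophils are usually recognised, and Retnlg encodes a secreted resistin-like protein made by myeloid cells. Keratinocytes, the cells that lose TBX20 here, are not the usual source of these transcripts. In RNA from whole skin, fewer neutrophils and less RNA per neutrophil cannot be told apart.

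On GRCm38.p6, RefSeq places Csf3r at chr4:126023441-126044975, Cxcr2 at chr1:74153994-74161246, Retnlg at chr16:48872608-48874498, Ly6g at chr15:75155261-75159128 and Selplg at chr5:113817798-113832528. Neighbouring pairs lie on chromosome 17, with Fpr1 at chr17:17876471-17883939 beside Fpr2 at chr17:17887824-17893952, and Trem1 at chr17:48232713-48246927 beside Trem3 at chr17:48247677-48258848. The spans of Trem1 and Trem3 overlap predicted genes (Gm52307 and Gm52308 for both), and the span of Csf3r overlaps Gm32908. Reads of overlapping genes cannot be separated without strand, and strand was not stated. Of the 50-base stretches in annotated Fpr2 transcripts, 31.5% (408 of 1295) also occur in other genes, with 368 of them in Gm5966 and 82 in Fpr3, so its counts are less certain than those of Fpr1, where 1 of 1275 is shared. The share on the same strand was 10.5% for Csf3r, 4.01% for Cxcr2 and 1.27% for Selplg, and a further 1.9%, 6.35% and 1.51% matched the other strand of a gene. The other 6 genes had no matches on the other strand. Trem1, Trem3 and Retnlg shared none of their 50-base stretches, and Ly6g shared 4 of 892.

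RefSeq promoter windows, from 250 bases before to 50 bases after a transcription start, were held for 7 of the 9 genes. Short motifs of 4 factors that act in myeloid development, or that the study concerns, were searched on both strands. The 7 genes have 8 windows, as Ly6g has 2. The letters GAGGAA, a PU.1 core, were present in windows of 5 of the 7 genes (Csf3r, Cxcr2, Fpr2, Ly6g and Trem1). By window this was 6 of the 8, beside 28.3% of all 32851 windows. The C/EBP-like pattern TTNNGNAA was present in 5 of the 7 (Fpr1, Fpr2, Ly6g, Retnlg and Trem1), which is 6 of the 8 windows, beside 40.7% of all windows. The RUNX letters TGTGGT occurred in 1 of the 7, Fpr2, which is 1 of the 8 windows, beside 16.8% of all windows. The T-box letters AGGTGTG occurred in none of the 7 and in 5.8% of all windows, which says only that these letters are not in these windows. No matches of different motifs overlapped in these windows. The 250 bases before the start are shown for Fpr2, Ly6g (the first of its 2 listed starts) and Trem1, the genes that hold both the PU.1 and the C/EBP letters, with matches in capitals (TTCCTC is GAGGAA on the other strand).
Fpr2, chr17:17887574-17887823, plus strand: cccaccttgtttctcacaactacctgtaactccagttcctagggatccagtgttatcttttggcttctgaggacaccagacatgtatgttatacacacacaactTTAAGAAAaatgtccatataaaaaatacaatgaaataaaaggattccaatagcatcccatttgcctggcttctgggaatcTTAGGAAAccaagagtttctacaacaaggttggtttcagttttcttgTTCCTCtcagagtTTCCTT
Ly6g, chr15:75155011-75155260, plus strand: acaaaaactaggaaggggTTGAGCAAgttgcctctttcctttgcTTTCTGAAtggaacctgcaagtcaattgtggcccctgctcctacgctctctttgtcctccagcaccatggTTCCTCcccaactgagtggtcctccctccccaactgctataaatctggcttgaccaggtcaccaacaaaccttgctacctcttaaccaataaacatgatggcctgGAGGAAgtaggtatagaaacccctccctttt
Trem1, chr17:48232489-48232738, plus strand: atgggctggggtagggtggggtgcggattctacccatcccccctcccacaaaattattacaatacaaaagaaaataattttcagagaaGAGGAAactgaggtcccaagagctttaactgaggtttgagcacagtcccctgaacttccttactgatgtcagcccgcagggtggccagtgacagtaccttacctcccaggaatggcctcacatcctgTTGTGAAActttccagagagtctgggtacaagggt
In Fpr2 the PU.1 letters begin 19 bases before the start and C/EBP letters begin 146, 66 and 6 bases before it, the last match running past the start. The PU.1 letters begin 136 and 31 bases before the start in Ly6g and 162 bases before it in Trem1.

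The deposited counts totalled 16056282 to 19880654 per mouse, and FPKM, which scales each count by transcript length and library size, sets levels of different genes on a common per-length scale. Control mouse 2 stood apart from the other libraries. Its TMM scaling factor was 0.735 against 1.01 to 1.07 in the other 7 mice, and the median rank correlation of its log2 CPM (counts scaled to a common library size) with the others was 0.919 against 0.974 to 0.990. Relative to the other libraries it held more counts on short transcripts. At the lengths of the 9 genes this trend amounted to between -0.21 (Csf3r, 3157 bases) and 1.29 (Retnlg, 559 bases) on the log2 CPM scale. Results are therefore also given without control mouse 2 and with the trend of each mouse removed, called the length offset. The targeted gene Tbx20 had 0 to 2 counts in knockout and 0 to 3 in control mice, at or under a floor of 3 counts, so these libraries are too shallow to show its loss in whole skin. The keratinocyte markers Krt5, Krt14, Krt1, Krt10, Lor and Dsg1a summed to between 2940 and 4369 FPKM in control and 3351 and 4326 FPKM in knockout mice.

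All 9 genes had a lower fitted level in knockout than in control skin, with log2 fold changes of the counts from -1.74 (Trem1) to -0.29 (Selplg) and a median of -1.20, where the median over all 17124 genes tested was 0.03. None passed the threshold. The adjusted p of edgeR's quasi-likelihood test (Benjamini-Hochberg) was 0.498 for 8 of the genes and 0.513 for Selplg, and no gene at all was under 0.05 (0 of 17124, 0%). At an unadjusted p under 0.05, 6 of the 9 genes were lower (Cxcr2, Fpr1, Fpr2, Trem1, Trem3 and Ly6g), where 5.91% of all genes tested (1012) were lower by that rule and 2.45% (419) higher. DESeq2's Wald test gave an adjusted p under 0.05 for 10 genes (0.0584% of those tested), none of them among the 9, and its lowest adjusted p among the 9 were 0.0974 for Fpr2 and 0.0999 for Trem1. In FPKM, the groups did not overlap for 2 of the 9, Fpr2 and Ly6g, beside 1.92% of 15969 genes whose knockout values all lay below the control values. All 9 genes passed the filters on low counts and low FPKM.

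**Figure D1:**
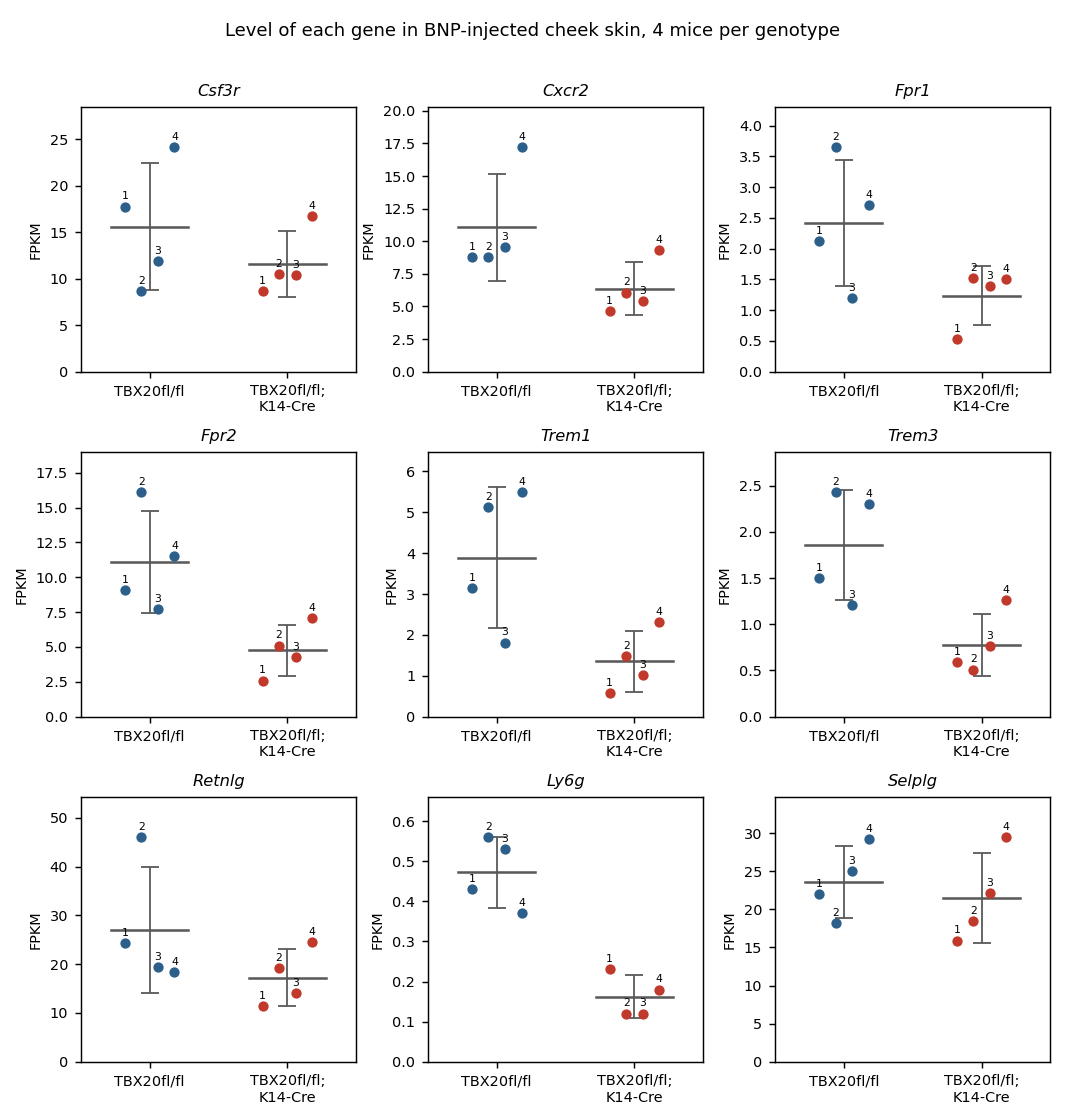
FPKM of each of the 9 genes (vertical axes, each starting at 0) in the 4 TBX20fl/fl and the 4 TBX20fl/fl;K14-Cre mice; points are mice with their replicate numbers, horizontal lines are group means and bars are 1 SD. The groups are separate for Fpr2 and Ly6g, overlap by 1 or more mice for the other 7, and overlap most for Selplg.

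Cxcr2 and Csf3r encode the receptors for the chemokines and the growth factor of neutrophils. Cxcr2 stood at 8.77, 8.78, 9.53 and 17.21 FPKM in control mice 1 to 4 and at 4.63, 6.06, 5.42 and 9.29 FPKM in knockout mice 1 to 4. Knockout mouse 4 lay above 2 of the controls, and the other 3 knockout mice lay below every control. The means were 11.1 ± 4.11 FPKM in controls and 6.35 ± 2.05 FPKM in knockouts (SD, n = 4 each, two-sided exact permutation p = 0.0857). Its log2 fold change from counts was -0.96 (SE 0.269, unadjusted p = 0.00581), and it hardly depended on the library that stood apart, at -0.94 without control mouse 2 and -1.01 with the length offset. It moved more with other mice, at -0.74 without control mouse 4 and -1.19 without knockout mouse 4. Csf3r, the G-CSF receptor, was at 17.75, 8.66, 11.87 and 24.14 FPKM in control and at 8.67, 10.50, 10.42 and 16.71 FPKM in knockout mice. The lowest value of all was that of control mouse 2, 8.66 FPKM, so the groups overlapped over most of their range. Csf3r averaged 15.6 ± 6.82 FPKM in controls and 11.6 ± 3.53 FPKM in knockouts (SD, n = 4 each, exact permutation p = 0.343). The fitted log2 fold change was -0.51 (SE 0.281, unadjusted p = 0.10). That p was 0.0362 without control mouse 2 (log2 fold change -0.65), 0.0422 with the length offset (-0.57) and 0.0391 with replicate numbers as blocks (-0.49), so whether Csf3r falls under an unadjusted 0.05 depended on the fit. The size depended on single mice in both directions, at -0.27 (SE 0.256) without control mouse 4, -0.39 without knockout mouse 1 and -0.73 without knockout mouse 4.

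Fpr1 and Fpr2 encode G protein-coupled receptors for N-formylated peptides from bacteria and mitochondria, and FPR2 also binds annexin A1 and other host ligands. Fpr2 was at 9.07, 16.10, 7.74 and 11.52 FPKM in control mice and at 2.58, 5.10, 4.28 and 7.05 FPKM in knockout mice. Every knockout value lay below every control value, with control mouse 3 and knockout mouse 4 the nearest to each other. The knockout mean was 4.75 ± 1.86 FPKM against 11.1 ± 3.68 FPKM in controls, 42.8% of it (SD, n = 4 each, exact permutation p = 0.0286, the smallest that the 70 assignments of unpaired mice allow). The log2 fold change of Fpr2 was -1.46 (SE 0.389, unadjusted p = 0.00432), and it was -1.04 both without control mouse 2 and with the length offset. Fpr1 was at 2.12, 3.65, 1.20 and 2.71 FPKM in control and at 0.53, 1.52, 1.39 and 1.51 FPKM in knockout mice. Control mouse 3 lay below 3 of the knockout mice, and knockout mouse 1 was far under the other 3. Mean levels were 2.42 ± 1.03 and 1.24 ± 0.475 FPKM (SD, n = 4 each, exact permutation p = 0.114). Fpr1 had a log2 fold change of -1.20 (SE 0.467, unadjusted p = 0.0292), which came to -0.75 (unadjusted p = 0.0885) without control mouse 2 and -0.80 (unadjusted p = 0.0594) with the length offset.

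Trem1 and Trem3, neighbours on chromosome 17, encode immunoglobulin-like receptors of myeloid cells. Trem1 was at 3.15, 5.12, 1.81 and 5.49 FPKM in control mice and at 0.58, 1.49, 1.01 and 2.32 FPKM in knockout mice. The groups overlapped through 1 mouse on each side, knockout mouse 4 and control mouse 3. Its mean was 1.35 ± 0.746 FPKM in knockouts, 34.7% of the 3.89 ± 1.73 FPKM in controls (SD, n = 4 each, exact permutation p = 0.0571). The log2 fold change of -1.74 (SE 0.493, unadjusted p = 0.00605) was the largest of the 9 with all mice, and it was -1.41 without control mouse 2 and -1.81 with the length offset. Trem3 was at 1.5, 2.43, 1.21 and 2.30 FPKM in control and at 0.59, 0.51, 0.76 and 1.26 FPKM in knockout mice. Here too only knockout mouse 4 and control mouse 3 crossed. Trem3 rested on 10 to 25 counts per knockout mouse and 23 to 42 per control mouse, and its group means were 0.780 ± 0.337 and 1.86 ± 0.597 FPKM (SD, n = 4 each, exact permutation p = 0.0571). Its summed counts of 61 against 133, scaled for library size, gave a ratio of 0.392 (95% exact interval 0.284 to 0.534, counting error only). For Trem3 the log2 fold change was -1.44 (SE 0.414, unadjusted p = 0.00668), -1.11 without control mouse 2 and -0.96 with the length offset.

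Ly6g, the antigen used to sort and deplete mouse neutrophils, was scarce in all mice. It was at 0.43, 0.56, 0.53 and 0.37 FPKM in control and at 0.23, 0.12, 0.12 and 0.18 FPKM in knockout mice. The groups did not overlap, with control mouse 4 and knockout mouse 1 the nearest to each other. These values rest on 6 to 9 counts per control mouse and on 2 to 4 counts per knockout mouse, which is around the floor of 3 counts. Summed counts of 11 against 30 gave a ratio of 0.313 after scaling (95% exact interval 0.142 to 0.643, counting error only). The exact permutation p of the FPKM was 0.0286 (n = 4 each), and the log2 fold change from counts was -1.67 (SE 0.447, unadjusted p = 0.00429). It was -1.45 without control mouse 2 and -1.21 with the length offset.

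Retnlg and Selplg had the highest mean FPKM of the 9 genes, and their groups overlapped. Retnlg was at 24.32, 46.02, 19.46 and 18.31 FPKM in control mice and at 11.33, 19.11, 14.01 and 24.48 FPKM in knockout mice. Control mouse 2 alone was far above the rest, and knockout mouse 4 exceeded 3 of the 4 controls. Group means were 27.0 ± 12.9 and 17.2 ± 5.81 FPKM (SD, n = 4 each, exact permutation p = 0.229). Its log2 fold change was -0.92 (SE 0.428, unadjusted p = 0.0600) with all mice, but -0.32 (unadjusted p = 0.234) without control mouse 2 and -0.20 (unadjusted p = 0.488) with the length offset, so most of the Retnlg difference moved with that library. Selplg, the selectin ligand PSGL-1 that lymphocytes and other myeloid cells carry as well, was at 22, 18.18, 25.03 and 29.27 FPKM in control and at 15.89, 18.44, 22.17 and 29.47 FPKM in knockout mice. The groups covered nearly the same range. Selplg averaged 23.6 ± 4.69 and 21.5 ± 5.91 FPKM (SD, n = 4 each, exact permutation p = 0.657), with a log2 fold change of -0.29 (SE 0.199, unadjusted p = 0.183), also -0.29 without control mouse 2 and -0.15 with the length offset. Leaving out single mice moved the Selplg value between -0.47 and -0.17.

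**Figure D2:**
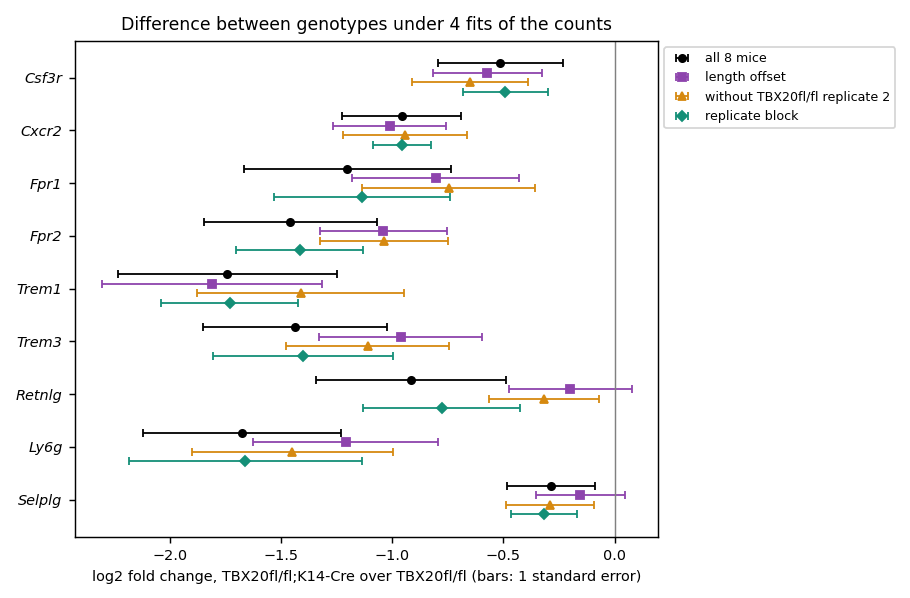
Log2 fold change of the counts, TBX20fl/fl;K14-Cre over TBX20fl/fl (horizontal axis), for each gene (vertical axis) in 4 fits, with bars of 1 standard error. All points lie below 0, those of Retnlg and Selplg nearest to it with the length offset, and those of Cxcr2 between -1.01 and -0.94 in every fit shown.

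Taking the 9 genes as a list, 6 of 9 had an unadjusted p under 0.05 in the lower direction also without control mouse 2 (4.5% of all genes tested) and with the length offset (5.69%). In both of these Csf3r came in and Fpr1 went out. The median log2 fold change was -0.94 without that mouse and -0.96 with the offset, where all genes tested had medians of 0.01 in each. With replicate numbers as blocks, 7 of 9 were under 0.05 (6.54% of all genes), the unadjusted p ran from 0.000247 (Cxcr2) to 0.0732 (Selplg), and the lowest adjusted p of the 9 genes was 0.405. Without knockout mouse 4, all 9 genes had an unadjusted p under 0.05 (4.1% of all genes), and without knockout mouse 1 it was 5 of 9 (3.15%). On the FPKM scale, limma on log2(FPKM + 1) gave 6 of 9 genes under an unadjusted 0.05 (3.39% of all genes lower by that rule), with a lowest adjusted p of 0.457 by the Benjamini-Hochberg method. The groups of 5 genes (Cxcr2, Fpr2, Trem1, Trem3 and Ly6g) did not overlap in FPKM without knockout mouse 4, where this held for 3.49% of all genes. Without control mouse 3 there were also 5 (Fpr1, Fpr2, Trem1, Trem3 and Ly6g), where it held for 2.34%. In TMM-scaled CPM the groups of 3 genes did not overlap (3.27% of all genes), and with the length trend removed from log2 CPM those of none of the 9 (2.87%).

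In order of mean FPKM over the 8 mice, Selplg (22.6) and Retnlg (22.1) came first, then Csf3r (13.6), Cxcr2 (8.71), Fpr2 (7.93), Trem1 (2.62), Fpr1 (1.83), Trem3 (1.32) and Ly6g (0.318). Selplg exceeded Retnlg in 5 of 8 mice and Cxcr2 exceeded Fpr2 in 6 of 8, with mean differences of 0.426 and 0.781 FPKM against SDs of 12.2 and 3.70, so these neighbours did not differ beyond their spread. Both orders differed by genotype, with Retnlg (27.0) above Selplg (23.6) and Fpr2 (11.11) above Cxcr2 (11.07) in the control means, and the reverse in the knockout means. Fpr2 exceeded Trem1 in all 8 mice, by 5.31 ± 2.72 FPKM (SD), and Trem3 exceeded Ly6g in all 8, by 1.00 ± 0.615 FPKM.

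The genes varied together from mouse to mouse. Mean log2 CPM over the 9 genes was 3.01, 3.80, 2.79 and 3.36 in control mice 1 to 4 and 1.75, 2.22, 2.14 and 2.75 in knockout mice 1 to 4. These means did not overlap, though control mouse 3 and knockout mouse 4 were close, and after removal of the length trend knockout mouse 4 (2.91) lay above control mouse 3 (2.72). Between mice of the same replicate number the knockout mean was lower in all 4 pairs, with and without the length trend. By single genes, FPKM was lower in 4 of 4 pairs for Cxcr2, Fpr2, Trem1, Trem3 and Ly6g, in 3 of 4 for Csf3r, Fpr1 and Retnlg, and in 2 of 4 for Selplg. Within the knockout group, mouse 1 had the lowest FPKM for 7 of the 9 genes and mouse 4 the highest for 7. Within the control group, mouse 2 was highest for 5 genes and mouse 4 for the other 4. Over the 36 pairs of genes, Pearson's r of log2 CPM across the 8 mice ran from 0.181 to 0.970 with a median of 0.753. Measured on deviations from each genotype's mean, r ran from -0.664 to 0.927 with a median of 0.575, and it was above 0 for 30 pairs. The closest pairs by these deviations were Fpr1 with Fpr2 (0.927) and Fpr2 with Trem1 (0.927), and the most opposed was Csf3r with Ly6g (-0.664), where Ly6g rests on few counts. All values of a mouse share its library, so these correlations are given as a description over 8 mice.

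**Figure D3:**
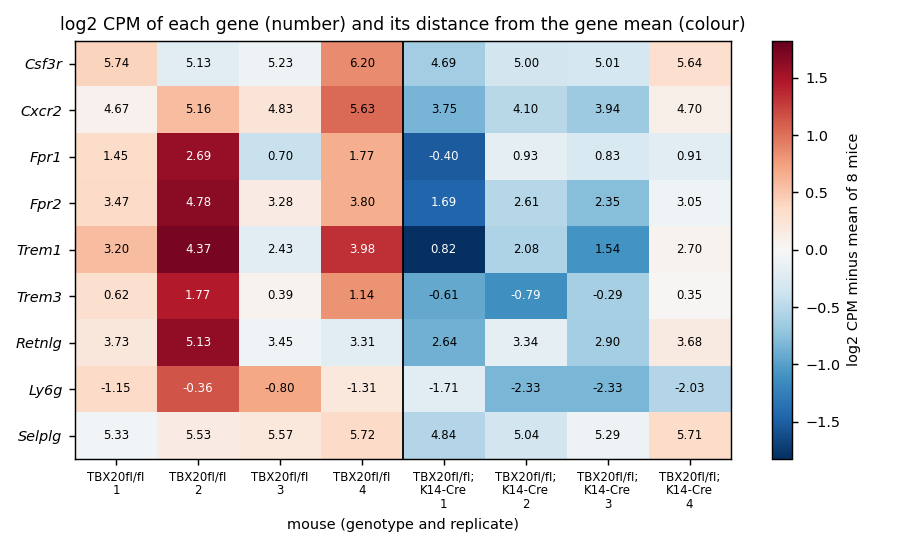
Heat map of the 9 genes (rows) in the 8 mice (columns, control mice left and knockout mice right), with log2 CPM printed in each cell and colour showing the distance from the gene's mean over the 8 mice. Control mouse 2 has the highest value for Fpr1, Fpr2, Trem1, Trem3, Retnlg and Ly6g, knockout mouse 1 lies below the mean for all 9 genes, and knockout mouse 4 is the highest of its group for 7.

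The ligands of these receptors and the selectins that PSGL-1 meets were taken as 1 list. Of these 12 genes, all tested, 11 had a lower fitted level in knockout skin, 8 at an unadjusted p under 0.05 (5.91% of all genes tested were lower by that rule). None had an adjusted p under 0.05 (lowest 0.498, edgeR's quasi-likelihood test, Benjamini-Hochberg). The list's median log2 fold change was -0.99, and without control mouse 2 it was -0.75 with 4 of 12 under 0.05 (4.5% of all genes). With the replicate block 7 of 12 were under 0.05 (6.54%). Csf3, which encodes G-CSF, was at 1.16, 0.95, 0.89 and 1.43 FPKM in control and at 0.20, 0.39, 0.35 and 0.89 FPKM in knockout mice, so the groups met only at 0.89. The log2 fold change of Csf3 was -1.42 (SE 0.428, unadjusted p = 0.00846), and -1.38 without control mouse 2. Among the CXCR2 ligands, Cxcl2 was at 21.64, 38.91, 11.51 and 28.82 FPKM in control and at 1.65, 8.79, 3.92 and 13.60 FPKM in knockout mice. Only knockout mouse 4 and control mouse 3 crossed for Cxcl2, as they did for Trem1 and Trem3. Its log2 fold change was -2.10 (SE 0.637, unadjusted p = 0.00886), or -1.61 without control mouse 2. Cxcl3 (-2.04, unadjusted p = 0.0227), Cxcl5 (-1.97, unadjusted p = 0.0188) and Cxcl1 (-1.73, unadjusted p = 0.0355) had log2 fold changes of the same order. Their unadjusted p without control mouse 2 were 0.0724, 0.0642 and 0.166, with -1.40, -1.22 and -0.79. In Cxcl1 that mouse was at 40.98 FPKM and the other 3 controls at 10.49 to 13.56 FPKM. Ppbp, a platelet chemokine that also binds CXCR2, had a log2 fold change of -1.14 (unadjusted p = 0.0641).

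**Figure D4:**
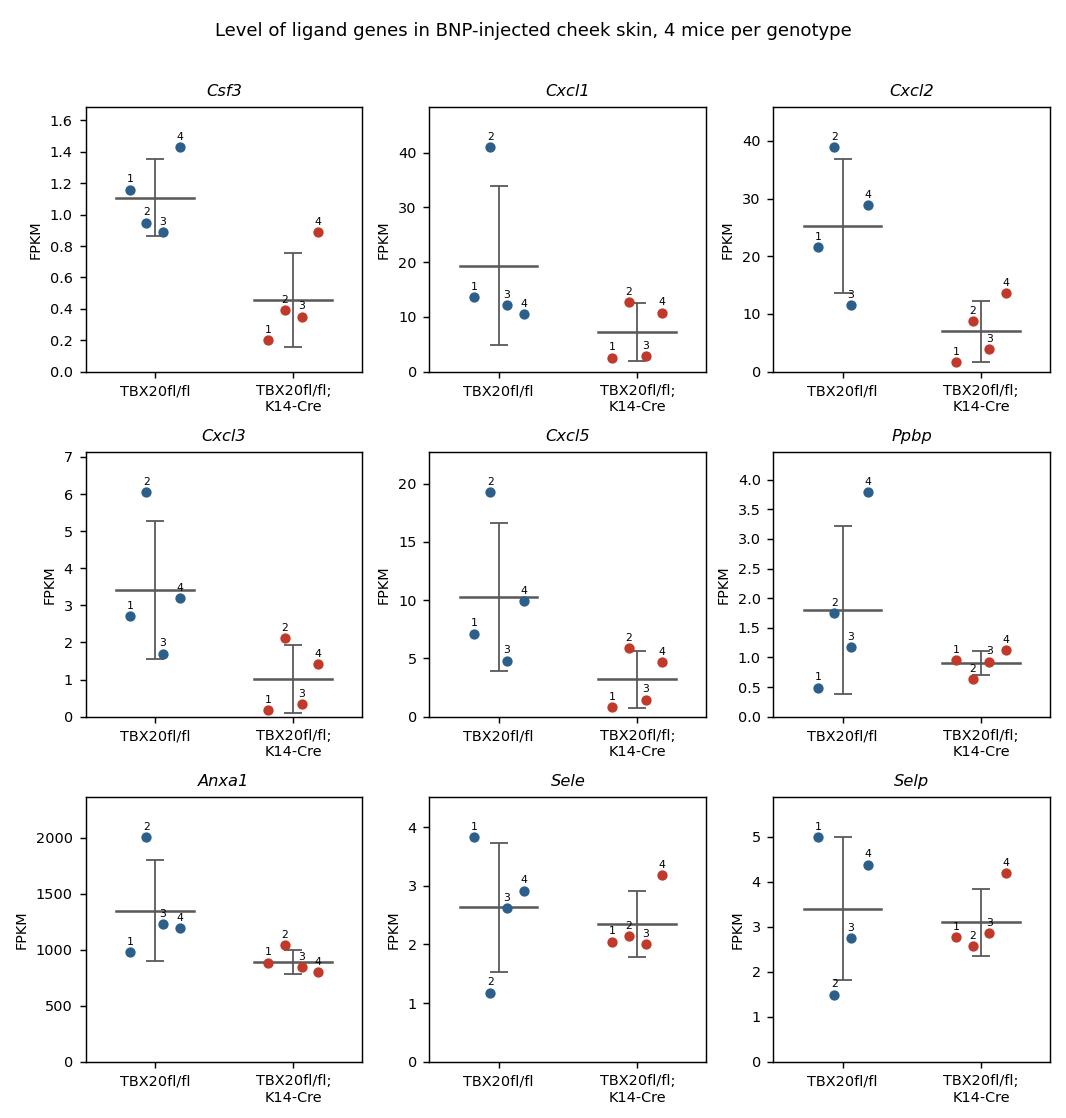
FPKM of 9 of the 12 ligand genes (vertical axes, each starting at 0) in the 4 TBX20fl/fl and the 4 TBX20fl/fl;K14-Cre mice, drawn as for the 9 neutrophil genes, with group means and bars of 1 SD. Control mouse 2 is the highest control for Cxcl1, Cxcl2, Cxcl3, Cxcl5 and Anxa1 and the lowest for Sele and Selp, and in the last row Sele and Selp overlap over most of their range.

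Among ligands of the other receptors, Anxa1, an FPR2 ligand abundant in epidermis, averaged 1350 ± 450 FPKM in controls and 891 ± 106 FPKM in knockouts (SD, n = 4 each, exact permutation p = 0.0571). Its log2 fold change was -0.84 (unadjusted p = 0.0309), and -0.39 without control mouse 2. Camp, whose peptide product also acts on FPR2, had 0 to 16 counts and the only higher fitted level of the list (log2 fold change 0.57, unadjusted p = 0.602). Pglyrp1, a TREM1 ligand stored in neutrophil granules, had a log2 fold change of -0.74 (unadjusted p = 0.0401) that came to -0.41 (unadjusted p = 0.0993) without control mouse 2 and to -0.16 (unadjusted p = 0.560) with the length offset. The endothelial selectin genes Sele (-0.30, unadjusted p = 0.253) and Selp (-0.24, unadjusted p = 0.416) did not reach an unadjusted 0.05.

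Of 20 genes of signalling partners of the receptors, 13 had a lower fitted level, with a median log2 fold change of -0.17. Of these, 4 were at an unadjusted p under 0.05 (5.91% of all genes tested were lower by that rule) and none at an adjusted p under 0.05. The 4 were Tyrobp, the DAP12 adaptor of TREM1 and TREM3 (-1.01, unadjusted p = 0.0147), Rac2, a GTPase of blood cells (-0.45, unadjusted p = 0.0401), Socs3, a feedback inhibitor of G-CSF signalling (-0.67, unadjusted p = 0.0469), and the kinase Fgr (-0.51, unadjusted p = 0.0476). Without control mouse 2 the unadjusted p of Rac2 was 0.0613 and that of Socs3 0.0663, and with the replicate block that of Rac2 was 0.0527. Tyrobp came to -0.30 (unadjusted p = 0.121) with the length offset, and to -0.57 (unadjusted p = 0.0150) without control mouse 2.

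Of 21 other surface genes of neutrophils tested, 17 had a lower fitted level, with a median log2 fold change of -0.15. Of these, 8 were at an unadjusted p under 0.05 (5.91% of all genes tested were lower by that rule) and none at an adjusted p under 0.05. The groups of 5 did not overlap in FPKM, beside 1.92% of all genes. The lowest p were those of Fcgr4, an activating Fc receptor (-1.35, unadjusted p = 0.00255), Clec5a, another receptor that pairs with DAP12 (-1.02, unadjusted p = 0.00262), Clec4d, a C-type lectin (-1.76, unadjusted p = 0.00335), and Ccr1, a chemokine receptor (-1.26, unadjusted p = 0.00567). Fcgr4 was at 11.12, 22.09, 17.13 and 15.87 FPKM in control and at 5.06, 6.45, 9.31 and 9.59 FPKM in knockout mice, with no overlap. Itgam and Itgb2, which encode the CD11b and CD18 chains of the integrin Mac-1, had log2 fold changes of 0.01 (SE 0.360) and 0.01 (SE 0.313), and -0.22 and -0.18 without control mouse 2. Cxcr1, the other chemokine receptor of the CXCR2 family on neutrophils, had only 0 to 3 counts in knockout and 2 to 8 in control mice. The groups of Itgam spanned 4.96 to 24.03 FPKM in control and 11.09 to 21.49 FPKM in knockout mice. Other genes of the list did not fall beyond their error, with Cd177 at 0.27 (SE 0.460), C5ar1 at -0.15 (SE 0.189), Ptafr at -0.05 (SE 0.341) and Mmp9 at -0.002 (SE 0.373). Itgam, Itgb2, Cxcr1, Cd177, C5ar1, Ptafr and Mmp9 were singled out after their values were seen, and macrophages carry Mac-1 too.

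All 12 paralogues tested had a lower fitted level in knockout skin, with a median log2 fold change of -0.87. Of these, 9 were at an unadjusted p under 0.05 (5.91% of all genes tested were lower by that rule) and none at an adjusted p under 0.05. Without control mouse 2 the count at an unadjusted p under 0.05 was 5 (4.5% of all genes) and the median -0.60. With the length offset these were 4 (5.69%) and -0.41, and with the replicate block the count was 7 (6.54%). Ly6k (-1.45, unadjusted p = 0.00605), Ly6a (-0.95, unadjusted p = 0.0111), Ly6c2 (-2.02, unadjusted p = 0.0132) and Ly6c1 (-0.89, unadjusted p = 0.0174) had the lowest p. These 4 and Treml2 were the genes under 0.05 without control mouse 2, and the same without Ly6c1 with the length offset. Ly6c2 rests largely on control mouse 4, at 68.92 FPKM against 6.87 to 19.30 FPKM in the other controls. Of the other Ly6 relatives, Ly6i was at -0.85 (unadjusted p = 0.0367), Ly6d at -0.83 (unadjusted p = 0.0484) and Ly6e at -0.23 (unadjusted p = 0.201). Without control mouse 2 Ly6i came to -0.60, Ly6d to -0.29, Ly6a to -0.56 and Ly6c1 to -0.48. Ly6d was at -0.13 with the length offset, and its unadjusted p with the replicate block was 0.0810. The resistin-like relatives of Retnlg, Retn (-1.04, unadjusted p = 0.0472) and Retnla (-1.06, unadjusted p = 0.0297), came to -0.43 and -0.30 with the length offset, nearer to 0 as Retnlg did. With the replicate block the unadjusted p of Retnla was 0.0783. In the TREM cluster, Treml2 was at -0.80 (unadjusted p = 0.0394), Treml4 at -0.79 (unadjusted p = 0.157) and Trem2, a macrophage receptor, at -0.50 (unadjusted p = 0.183). Fpr3, Treml1 and Retnlb had too few counts to be tested, and 4 further formyl peptide receptor genes were not analysed here.

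Markers of the cells that could carry these transcripts differed between the groups to unequal degrees, and their part in the result was not tested. Of 11 genes listed for neutrophil granules, not all of them granule proteins, 9 had a lower fitted level. Of these, 6 were at an unadjusted p under 0.05 (Mpo, Elane, Prtn3, Ngp, S100a8 and S100a9), where 5.91% of all genes tested were lower by that rule. Padi4 (0.35, unadjusted p = 0.193) and Camp (0.57, unadjusted p = 0.602) had higher fitted levels. Ltf was at -0.13 (unadjusted p = 0.861), and Camp and Ltf rest on few counts. Mpo, Elane and Ngp passed the filter on low counts only through the control mice, so the count of 6 is a description. It was 4 without control mouse 2 (4.5% of all genes) and 3 with the length offset (5.69%), and the list's median log2 fold change went from -1.23 to -0.91 and -0.85. The summed FPKM ran from 255 to 946 in control and from 100 to 266 in knockout mice, with S100a8 and S100a9 as its largest terms. The paper treats both as markers of skin damage, so the sum is not a measure of neutrophil granules alone. S100a9, part of calprotectin, was at 132.00, 458.46, 137.43 and 457.35 FPKM in control and at 42.43, 88.88, 69.96 and 131.07 FPKM in knockout mice, with no overlap (log2 fold change -2.09, unadjusted p = 0.00436). S100a8, its partner, had a log2 fold change of -2.10 (unadjusted p = 0.00376). Without control mouse 2 S100a9 was at -1.59 and S100a8 at -1.67, and with the length offset at -1.34 and -1.33. Among genes of the primary granules, which form early in maturation, Mpo had 2 to 10 counts in control and 0 to 1 in knockout mice, and Elane had 2 to 11 and 1 to 3, too few for a fold. Prtn3 had 14 to 30 counts in control and 7 to 21 in knockout mice (-1.01, unadjusted p = 0.0416, or -0.91 and 0.0771 without control mouse 2), and Ctsg had 13 to 20 and 8 to 22 (-0.65, unadjusted p = 0.132).

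For the counts that follow, the share of all genes lower at an unadjusted p under 0.05 was 5.91% with all mice and 4.5% without control mouse 2. It was 6.54% with the replicate block and 5.69% with the length offset. Of 5 genes shared by all leukocytes, 5 had a lower fitted level and 3 an unadjusted p under 0.05, summing to 337 to 590 FPKM in control and 221 to 351 FPKM in knockout mice. They were Cd52 (-1.32, unadjusted p = 0.00636), Cd53 (-1.20, unadjusted p = 0.00739) and Coro1a (-0.59, unadjusted p = 0.0154), while Ptprc, the CD45 gene, was at -0.23 (unadjusted p = 0.313). Without control mouse 2 these 3 stayed under 0.05, with Cd52 at -0.80 and Cd53 at -0.71. Of 10 monocyte and macrophage genes, 6 had a lower fitted level, 3 at an unadjusted p under 0.05 (Ly6c2, Ccr2 and C1qb), but only Ly6c2 without control mouse 2. Ly6c2 was at 68.92 FPKM in control mouse 4, against 6.87 to 19.30 FPKM in the other controls and 5.30 to 12.07 FPKM in knockouts. Its mean difference thus rests largely on control mouse 4. The summed FPKM of that list was 461 to 765 in control and 446 to 675 in knockout mice. The macrophage genes Csf1r (0.39, unadjusted p = 0.202) and Adgre1 (-0.04, unadjusted p = 0.863) did not reach that level. For eosinophils and basophils, 4 of 4 genes tested had a lower fitted level and 2 were under 0.05, with Epx at 0 counts in all 4 control mice. Prg2, of eosinophil granules, was at -1.71 on 5 to 40 counts in control and 5 to 11 in knockout mice. Control mouse 2 held the 40 counts, and without it Prg2 was at -0.83 (unadjusted p = 0.134). The other gene, Mcpt8, had 1 to 8 counts in control and 0 to 2 in knockout mice and passed the filter only through the controls. The mast cell genes Cpa3 (-0.92) and Cma1 (-0.75) were 2 of 5 under 0.05, also without control mouse 2, but then at -0.47 and -0.37. The mast cell list summed to 581 to 866 FPKM in control mice (647 at most without control mouse 2) and to 478 to 535 FPKM in knockout mice. Of 8 lymphocyte genes 2 were under 0.05 (Cd2 and Cd3g), but 1 without control mouse 2 or with the replicate block and 0 with the length offset. Of 7 red cell and platelet genes also 2 were under 0.05 (Itga2b and Pf4), but 1 with the block and 0 without control mouse 2, where the list's median log2 fold change turned from -0.42 to 0.11. The lymphocyte list summed to 26.4 to 57.6 FPKM in control and 25.1 to 33.6 in knockout mice, and the red cell and platelet list to 404 to 1466 and 638 to 1268. No keratinocyte, endothelial, muscle or adipocyte gene of the lists was under 0.05 in either direction with all mice. Among fibroblast genes Col1a1 (1.1, unadjusted p = 0.0198) and Col1a2 (0.75, unadjusted p = 0.0250) had a higher fitted level, with Col1a2 at 0.39 (unadjusted p = 0.201) under the length offset. No gene of these lists had an adjusted p under 0.05.

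**Figure D5:**
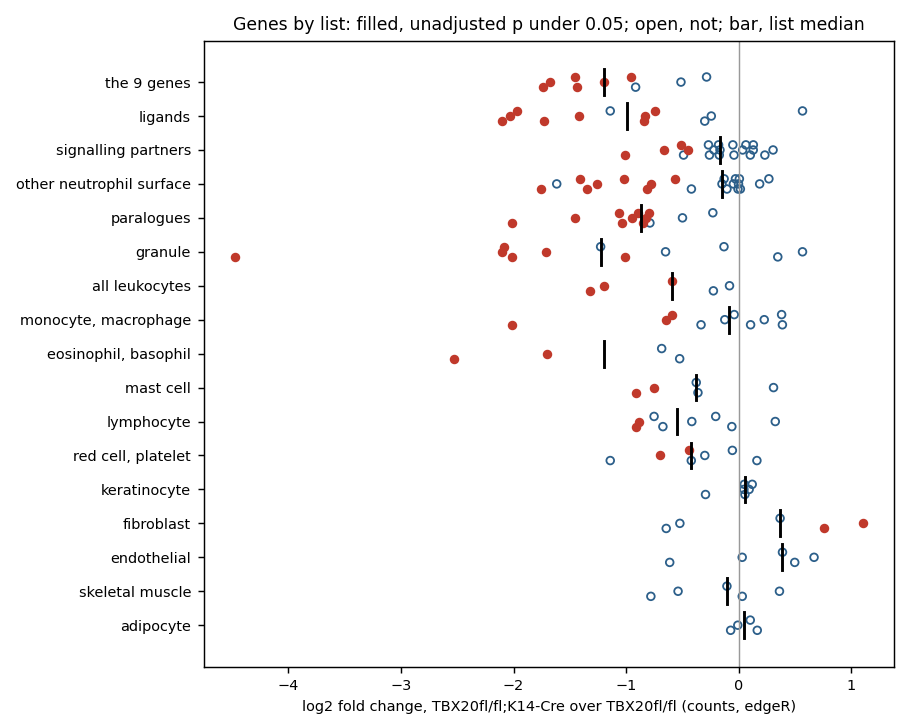
Log2 fold change of the counts, TBX20fl/fl;K14-Cre over TBX20fl/fl (horizontal axis), of every tested gene in each list (vertical axis), filled where the unadjusted p was under 0.05, with a bar at the list's median. The 9 genes, their ligands and the granule list have medians of -1.20, -0.99 and -1.23, the partners and other surface genes -0.17 and -0.15, and the keratinocyte genes 0.05.

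Among the 13292 genes that averaged 50 counts or more, those whose log2 CPM most resembled the mean of the 9 genes over the 8 mice were Clec4d (Pearson's r 0.991), Il1b (0.987), Slpi (0.984), Cd14 (0.983), Timp1 (0.982), Clec4e (0.980), Tnfrsf9 (0.975) and Tspan4 (0.975). On deviations from the genotype means, r ran from 0.934 (Tspan4) to 0.976 (Clec4d), and without control mouse 2 the r over 7 mice ran from 0.959 to 0.987. Because these genes were chosen for following a mean that itself did not overlap between the groups, their differences between genotypes are a description. Il1b, the gene of the cytokine interleukin-1β, was at 89.94, 197.60, 57.11 and 110.50 FPKM in control and at 12.95, 37.98, 22.42 and 58.56 FPKM in knockout mice. Only knockout mouse 4 and control mouse 3 crossed, and the log2 fold change was -2.06 (SE 0.563). Clec4d and Clec4e, both C-type lectin genes, did not overlap between groups, with log2 fold changes of -1.76 and -1.63. Clec4e was among the 10 genes with an adjusted p under 0.05 in DESeq2's Wald test (adjusted p = 0.0255), but not in edgeR's test (adjusted p = 0.498). Tspan4 ran parallel to the 9 genes over a narrow range, from 38.96 to 55.19 FPKM, with a log2 fold change of -0.30.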

How the data were processed

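RNA from the injected cheek skin of 8 mice was extracted with TRIzol, enriched with oligo(dT) and sequenced by a sequencing service, BGI, as single-end 50-base DNBseq reads. Per the study's methods, SOAPnuke was used for filtering and HISAT for alignment, and the counting program is not given in the sources used here. The authors deposited estimated counts per gene, without normalization, and 69.0% of those above 0 were not whole. The authors made the deposited FPKM values on the Dr. Tom platform, scaled by transcript length and library size. Deposited TPM, normalized counts, group means and the fold changes, p-values and q-values of the authors' own comparisons were not used.

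Counts were rounded, scaled by TMM and compared with edgeR 4.0.16 (quasi-likelihood test, R 4.3.3) in the 17124 genes whose counts over all mice summed to 10 or more. SE is the log2 fold change over the square root of F. FPKM was compared with limma 3.58.1 on log2(FPKM + 1), which understates changes of low genes, in 15969 genes with a mean of at least 0.1, and per gene by two-sided exact permutation over 70 assignments (smallest p 0.0286). DESeq2 1.42.0 was an alternative. Adjusted p are Benjamini-Hochberg values over all genes tested. The length offset is a spline of log2 CPM on transcript length per mouse, fitted where the mean count reached 50. Totals of 16056282 to 19880654 counts put 3 counts at 0.151 to 0.187 CPM, a floor for counting error only.

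Knockout and control mice with the same replicate number deviated together over 15072 genes. The r of deviations from group means was 0.147 to 0.398 in the 4 numbered pairs, with a mean of 0.273. The mean of -0.0815 in other pairs is no separate evidence, because deviations from a group mean cancel out within the group. Some other pairs deviated together as much, with knockout mouse 4 and control mouse 1 at 0.372 and knockout mouse 2 and control mouse 3 at 0.202. Whether the numbers pair the mice is therefore not settled, and what they stand for is not stated in the labels. The main tests were unpaired and the block was an alternative. An exact test within 4 pairs would have 16 sign assignments and could not go below p = 0.125. The 9 genes and the gene lists were chosen with earlier results of these data known. Named were the 9 genes, the ligand genes (1 of them is counted in its list but not reported here), paralogues in the table, up to 4 genes of each other list with the smallest p under 0.05, the 8 genes most alike, and a few set beside them for contrast, chosen after their values were seen. Motif letters were matched in the RefSeq promoter table of GRCm38.p6.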

Additional observations from a re-analysis of the deposited data

Results flagged for a closer look

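Of 156 groups of 4 mice examined (the FPKM of most named genes in each genotype), 12 held a mouse far from the other 3, where chance would give about 7.8. For Cxcr2, control mouse 4 was at 17.21 FPKM and the other controls at 8.77 to 9.53 FPKM. For Fpr1, knockout mouse 1 was at 0.53 FPKM and the other knockouts at 1.39 to 1.52 FPKM. For Cxcl1, control mouse 2 was at 40.98 FPKM and the other controls at 10.49 to 13.56 FPKM. For Camp, control mouse 2 was at 0.79 FPKM and the other controls at 0.10 to 0.19 FPKM, on few counts. For Sele, knockout mouse 4 was at 3.18 FPKM and the other knockouts at 2.01 to 2.14 FPKM. For Socs3, control mouse 1 was at 35.62 FPKM and the other controls at 20.9 to 23.19 FPKM. For Ly6c2, knockout mouse 4 was at 12.07 FPKM and the other knockouts at 5.3 to 5.67 FPKM, and for Ly6i it was at 2.07 FPKM and the others at 1.03 to 1.15 FPKM. In 4 groups a single mouse was above 0 on few counts, with Fpr3 at 0.05 FPKM in knockout mouse 4, Retnlb at 0.08 FPKM in control mouse 4, Mpo at 0.02 FPKM in knockout mouse 3 and Epx at 0.02 FPKM in knockout mouse 1.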

How the results depend on the processing

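All 9 genes kept a lower fitted level in knockout skin in every fit run in which they were tested; Ly6g was too low for edgeR's own expression filter and for a mean FPKM of at least 1. The number of genes with an adjusted p under 0.05 was 0 in every edgeR and limma fit and 10 with DESeq2's Wald test, whose cause was not tested. Leaving out each mouse in turn gave 5 to 9 of the 9 genes lower at an unadjusted p under 0.05 in the counts, beside 3.15% to 10.9% of all genes in those fits, and medians of the log2 fold change of -1.45 to -0.94 in the counts and -0.76 to -0.42 in FPKM. The number of genes whose groups did not overlap in FPKM was 2 with all mice, 2 to 5 without 1 mouse, 3 in TMM-scaled CPM, and 0 in log2 CPM with the length trend removed; the last 2 alternatives and the leaving out of mice for that count were chosen after seeing the data. With the replicate block the median log2 fold change was -1.14 in the counts and -0.59 in FPKM, and the paired fit changed no adjusted call. At 2 to 9 counts per mouse, depth limits Ly6g, and at 10 to 42 counts Trem3.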
